A study of Danio rerio with 6 samples.

Results

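Transcripts of 6 genes that make or restrain the BMP signal were followed in whole zebrafish embryos: the ligand genes bmp4 and admp, the antagonist genes chrd, nog1 and fsta, and the feedback gene szl. They were chosen by name, with earlier results of these data known, and found by mapping the gene identifier of each deposited record to its current symbol. Each symbol had 1 record, so all 6 were present among the 13274 genes of the table. Embryos had been exposed to SB505124, a small molecule that blocks the type I receptors of Nodal, activin and TGF-beta and is not known to act on the BMP receptors. Exposure started at sphere stage (sphere-treated) or at 30% epiboly, which is later (epiboly-treated). Freezing took place at shield, at tailbud or at the 7-somite stage for each onset, which gave 6 groups. Each group is labelled as 1 sample, a pool of 30 to 60 embryos. The labels give no strain, dose or vehicle, every group analysed here received the inhibitor, and an untreated group was not analysed here, so each onset comparison sets an earlier block against a later one.

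BMP ligands pattern the fish gastrula from ventral to dorsal: high signal gives epidermis and ventral mesoderm, and low signal gives neural plate and axial mesoderm. The dorsal organizer, which forms under Nodal signalling, releases chordin and noggin, which bind BMP outside the cell. Follistatin binds activin as well as BMP. Admp is a BMP-like ligand made on the dorsal side, and sizzled is a ventral protein that BMP induces and that protects chordin from the proteases that cut it.

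For each group the authors deposited an upper-quartile normalized (UQN) mean and its standard error, and values below are UQN means ± that standard error. The pattern of the standard errors shows that 3 whole-number values stood behind each mean, although the labels list 1 sample per group, and no source used here says whether they were separate clutches. The p-values therefore measure only the spread between those values, which may be technical. Every record kept in the table reaches a mean of at least 101 in some group. Summed means of the groups ran from 15311014 to 21048013, and the median relative standard error from 2.46% to 5.18%. Ratios are log2 of (mean + 5) in one group over (mean + 5) in the other, a scale that understates the changes of low values. A gene is called when its limma-moderated test has an adjusted p under 0.05 over all 13274 genes. For the onset effect at a given stage, rose and fell mean higher or lower in sphere-treated than in epiboly-treated embryos, not a change over time. Neighbours in the order of a gene's 6 levels were compared by the same test. Where such neighbours differ in both onset and stage, the share of all genes called was 68% for sphere-treated shield against epiboly-treated tailbud embryos, 77.9% and 50.6% for sphere-treated tailbud embryos against epiboly-treated shield and 7-somite embryos, and 85.8% and 50.4% for sphere-treated 7-somite embryos against epiboly-treated shield and tailbud embryos. In RNA of whole embryos, fewer cells of a type and less RNA per cell cannot be told apart.

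**Figure D1:**
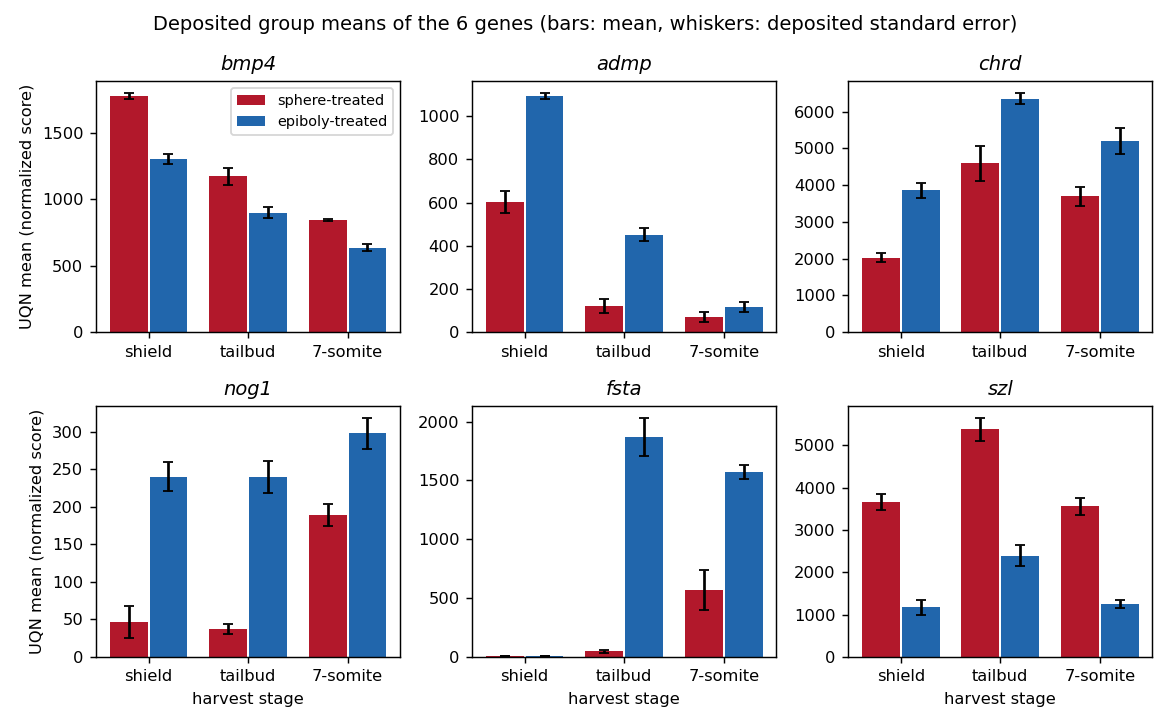
UQN means (y axis, normalized score, a separate scale for each gene) of the 6 genes at the 3 harvest stages (x axis), with sphere-treated embryos in red and epiboly-treated embryos in blue; whiskers are the deposited standard errors. bmp4 and szl stood higher in sphere-treated embryos at all 3 stages, and the other genes stood lower, with fsta near 0 in both groups at shield.

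The ligand gene bmp4 was modestly higher after the earlier block. In sphere-treated embryos it stood at 1775 ± 23.4 at shield, 1172 ± 64.6 at tailbud and 845 ± 8.95 at 7-somite. In epiboly-treated embryos the same stages had 1302 ± 38.2, 899 ± 44.2 and 636 ± 26.7. The sphere-treated mean was the higher one at each stage, and the intervals of 1 standard error did not overlap. At shield bmp4 was higher in sphere-treated embryos by a log2 ratio of 0.45 (SE 0.06, limma adjusted p = 0.013), and at 7-somite by 0.41 (SE 0.08, limma adjusted p = 0.025). The 7-somite call was lost with 2 values taken behind each mean (limma adjusted p = 0.070, range over the alternatives 0.0040 to 0.070). At tailbud the log2 ratio was 0.38, with a 95% interval from 0.12 to 0.65, but it did not pass the test over all genes (limma adjusted p = 0.19). Within each onset bmp4 fell at both stage steps. From shield to 7-somite the log2 change was -1.07 in sphere-treated and -1.03 in epiboly-treated embryos. In the order of its 6 levels, the neighbours from sphere-treated 7-somite embryos up to epiboly-treated shield embryos did not pass the test over all genes.

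The second ligand gene, admp, moved the other way. Its UQN mean was 603 ± 51.9 at shield, 122 ± 32.9 at tailbud and 70 ± 25.1 at 7-somite in sphere-treated embryos. Epiboly-treated embryos had 1093 ± 14.7, 452 ± 28.7 and 118 ± 22.4. The sphere-treated mean was lower each time, and at 7-somite the intervals of 1 standard error nearly met. admp was called lower in sphere-treated embryos at shield, with a log2 ratio of -0.85 (SE 0.11, limma adjusted p = 0.013), and at tailbud, with a log2 ratio of -1.85 (SE 0.31, limma adjusted p = 0.039). The shield call was lost with the spread pooled over the 6 groups (limma adjusted p = 0.074, range over the alternatives 0.0052 to 0.074), and the tailbud call with a pseudocount of 1 (limma adjusted p = 0.0502, range over the alternatives 2.1e-06 to 0.22). At 7-somite the ratio was -0.71, with a 95% interval from -1.72 to 0.29 (limma adjusted p = 0.27). Both onsets showed a steep decline with stage. The log2 change from shield to tailbud was -2.26 in sphere-treated and -1.26 in epiboly-treated embryos. The step from tailbud to 7-somite was -1.89 in epiboly-treated embryos, and the -0.76 in sphere-treated embryos did not pass the test (limma adjusted p = 0.22). In the order of levels, epiboly-treated 7-somite embryos did not pass the test against either neighbour, sphere-treated 7-somite and sphere-treated tailbud embryos.

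chrd, which encodes chordin, was lower in sphere-treated embryos. They had 2029 ± 129 at shield, 4590 ± 468 at tailbud and 3691 ± 256 at 7-somite, against 3858 ± 209, 6356 ± 151 and 5209 ± 350 in epiboly-treated embryos. The gap was widest at shield, where chrd was lower by 0.93 on the log2 scale (SE 0.11, limma adjusted p = 0.013). It was also called lower in sphere-treated embryos at 7-somite, by 0.50 (SE 0.13, limma adjusted p = 0.044). That call was lost when groups were rescaled to equal totals (limma adjusted p = 0.061, range over the alternatives 0.0085 to 0.11). At tailbud the log2 ratio was -0.47, with a 95% interval from -0.80 to -0.14 (limma adjusted p = 0.19). chrd rose from shield to tailbud in both onsets, by a log2 change of 1.18 in sphere-treated and 0.72 in epiboly-treated embryos. The step from tailbud to 7-somite did not pass the test in either. In epiboly-treated embryos it was -0.29, with a 95% interval from -0.53 to -0.05 (limma adjusted p = 0.057), and passed with a pseudocount of 20 (0.049) and with trended moderation (0.011), in a range over the alternatives of 0.011 to 0.13. Sphere-treated shield embryos stood below all other groups, and of the 5 neighbouring pairs in the order of levels this lowest pair alone passed the test over all genes.

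The noggin gene nog1 showed a larger gap at the first 2 stages and a smaller one later. It had 46 ± 21.4 at shield, 37 ± 6.66 at tailbud and 189 ± 15.2 at 7-somite in sphere-treated embryos. In epiboly-treated embryos the means were 240 ± 19.1, 240 ± 21.5 and 298 ± 20.7, with no change between stages that passed the test. The change from shield to 7-somite in these embryos was 0.31 on the log2 scale, with a 95% interval from 0.004 to 0.61 (limma adjusted p = 0.055), and it passed under 5 of 11 alternatives, among them median-of-ratios scaling (log2 change 0.52) and equal totals (0.66), in a range over the alternatives of 0.0021 to 0.44. nog1 was lower in sphere-treated embryos at shield (log2 ratio -2.26, SE 0.50, limma adjusted p = 0.020), where it ranked 5 from the lowest ratio of all genes. At tailbud it was lower with a log2 ratio of -2.54 (SE 0.22, limma adjusted p = 0.0023). At 7-somite the log2 ratio was -0.64 (SE 0.13, limma adjusted p = 0.027), and that call was lost with the spread pooled over the 6 groups (limma adjusted p = 0.22, range over the alternatives 0.0013 to 0.22). Between tailbud and 7-somite nog1 rose by 2.21 on the log2 scale in sphere-treated embryos (limma adjusted p = 8.2e-04), against 0.31 in epiboly-treated embryos, which did not pass the test (limma adjusted p = 0.12). In the order of levels, the 2 lowest groups, sphere-treated tailbud and shield, did not pass the test against each other, nor did neighbours among the 3 epiboly-treated groups.

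fsta, the follistatin gene, had the widest onset difference of the 6, at tailbud. It was near the bottom of the scale at shield, with 7 ± 0.333 in sphere-treated and 8 ± 1.16 in epiboly-treated embryos. By tailbud it stood at 47 ± 11.4 in sphere-treated embryos, against 1871 ± 163 in epiboly-treated embryos. At 7-somite the means were 569 ± 168 in sphere-treated and 1575 ± 60.5 in epiboly-treated embryos. The log2 ratio was -5.17 at tailbud (SE 0.28, limma adjusted p = 3.6e-04), the rank 3 from the lowest of all genes. At 7-somite it was -1.46 (SE 0.33, limma adjusted p = 0.035), and at shield -0.12, with a 95% interval from -0.41 to 0.17 (limma adjusted p = 0.46). From shield to tailbud fsta rose in both onsets, by a log2 change of 2.12 in sphere-treated and 7.17 in epiboly-treated embryos. From such low shield values the size depends on the pseudocount, and over the alternatives it ran from 1.31 to 2.59 in sphere-treated and from 6.08 to 7.70 in epiboly-treated embryos. The next step brought a further rise of 3.46 in sphere-treated embryos (limma adjusted p = 0.0015), while epiboly-treated embryos changed by -0.25 (limma adjusted p = 0.14). Only the 2 shield groups and the 2 highest groups, epiboly-treated 7-somite and tailbud, were neighbours that did not pass the test against each other.

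szl, the feedback gene that encodes sizzled, was higher after the earlier block at every stage. Its UQN mean was 3656 ± 194 at shield, 5378 ± 280 at tailbud and 3558 ± 194 at 7-somite in sphere-treated embryos. Epiboly-treated embryos had 1172 ± 183, 2392 ± 245 and 1250 ± 94. The lowest of the 3 sphere-treated means lay above the highest epiboly-treated mean, and these neighbours in the order passed the test (limma adjusted p = 0.016). The log2 ratio of sphere-treated over epiboly-treated embryos was 1.64 at shield (SE 0.20, limma adjusted p = 0.013). It was 1.17 at tailbud (SE 0.15, limma adjusted p = 0.013) and 1.51 at 7-somite (SE 0.12, limma adjusted p = 0.0019). At tailbud this was rank 17 from the highest ratio of all genes. Both onsets followed the same course over time: szl rose from shield to tailbud (log2 change 0.56 in sphere-treated and 1.03 in epiboly-treated embryos) and fell from tailbud to 7-somite (-0.60 in sphere-treated and -0.93 in epiboly-treated embryos). Shield and 7-somite levels did not pass the test against each other within either onset, but with groups rescaled to equal totals szl rose by 0.42 over this span in sphere-treated embryos, against -0.04 on the deposited scale.

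**Figure D2:**
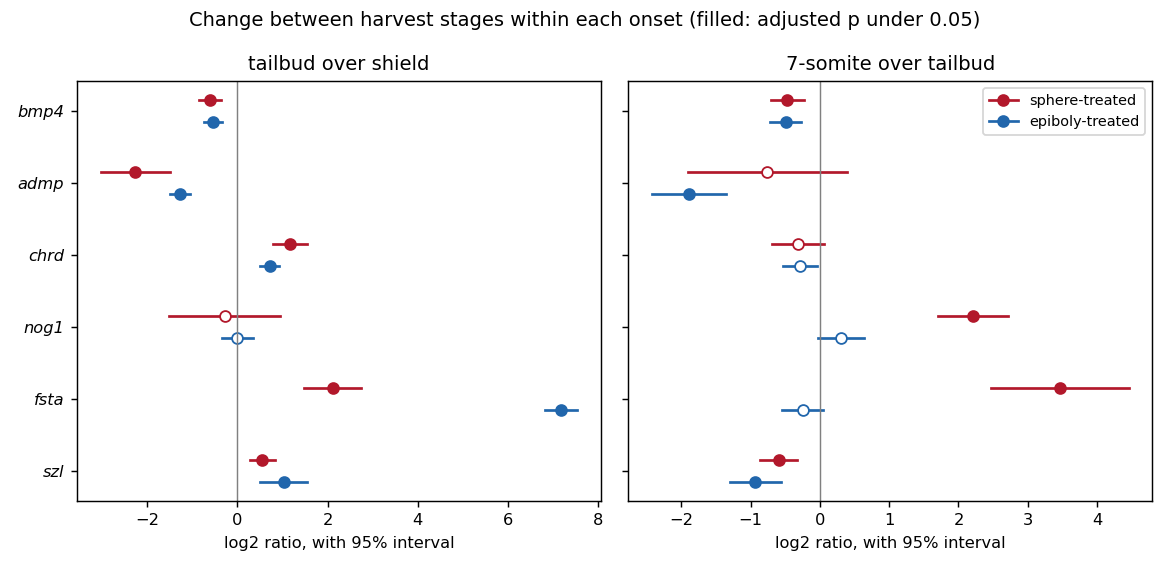
Log2 ratio (x axis) of each gene from shield to tailbud (left) and from tailbud to 7-somite (right), in sphere-treated (red) and epiboly-treated (blue) embryos, with 95% intervals; filled points have an adjusted p under 0.05. fsta rose in epiboly-treated embryos at the first step by 7.17 and in sphere-treated embryos at the second by 3.46.

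Scaling bears on the changes between stages more than on the onset ratios. The median log2 change of all genes from shield to tailbud was -0.23 in sphere-treated and -0.19 in epiboly-treated embryos. Median-of-ratios scaling moved these medians by 0.22 and 0.19, and equal totals moved them by 0.31 and 0.28. Relative to the median of all genes, the first step of bmp4 was -0.37 in sphere-treated and -0.35 in epiboly-treated embryos, and that of admp -2.03 and -1.08. For chrd it was 1.40 in sphere-treated and 0.91 in epiboly-treated embryos, for szl 0.78 and 1.21, and for fsta 2.34 and 7.36. Both rescalings left the direction of every called step of the 6 genes as it was.

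Of the 6 genes 3 rose (chrd, fsta and szl) and 2 fell (bmp4 and admp) from shield to tailbud in sphere-treated embryos, where 20% of all genes were called higher and 43.3% lower. The same 3 rose and the same 2 fell in epiboly-treated embryos, where 32.6% of all genes were called higher and 48% lower. At the step to 7-somite nog1 and fsta rose and bmp4 and szl fell in sphere-treated embryos (24% of all genes higher and 26.5% lower). In epiboly-treated embryos limma called 3 lower (bmp4, szl and admp) and 0 higher, with 4 lower and 0 higher at an unadjusted p under 0.05 (22.4% of all genes lower and 21.6% higher). Over the whole span from shield to 7-somite 77.8% of all genes were called in sphere-treated and 87.1% in epiboly-treated embryos, and 5 and 4 of the 6 genes.

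**Figure D3:**
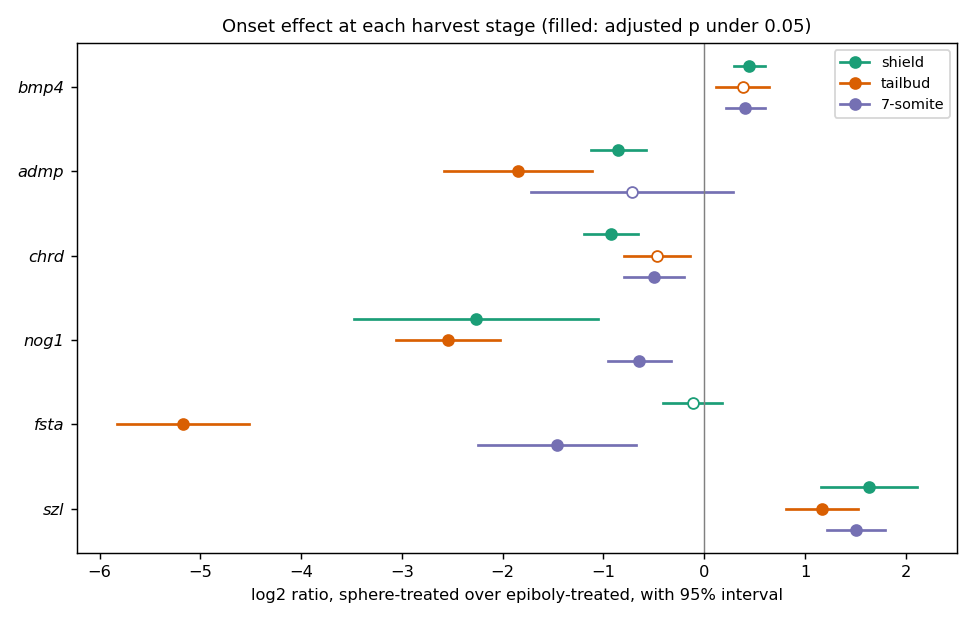
Log2 ratio of sphere-treated over epiboly-treated embryos (x axis) for each gene at shield (green), tailbud (orange) and 7-somite (purple), with 95% intervals; filled points have an adjusted p under 0.05. bmp4 and szl lie to the right of 0 at all 3 stages, and admp, chrd, nog1 and fsta to the left.

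Counted by stage, the onset effect reached most of the 6 genes. At shield 2 rose (bmp4 and szl) and 3 fell (chrd, nog1 and admp), where 20.5% of all genes were called higher and 19.9% lower. At tailbud szl rose and 3 fell (nog1, admp and fsta), where 0.249% of all genes were called higher and 1.74% lower. At 7-somite 2 rose (bmp4 and szl) and 3 fell (chrd, nog1 and fsta), where 5.91% of all genes were called higher and 8.81% lower. With groups rescaled to equal totals the 7-somite calls over all genes were 1159 higher and 730 lower, against 785 higher and 1169 lower on the deposited scale. Without moderation of the variance across genes, fsta alone of the 6 was called at tailbud and szl alone at 7-somite, and nog1 lost its shield call (adjusted p = 0.069, range over the alternatives 3.8e-04 to 0.069).

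The authors' deposited table carries its own call at a 50% change for each stage. Of its 13321 records, 776 were called higher and 1139 lower in sphere-treated embryos at shield. At tailbud 57 were called higher and 160 lower, and at 7-somite 40 and 140. In the authors' deposited table szl and nog1 were called at all 3 stages, fsta at tailbud and 7-somite, chrd at shield, and bmp4 at none. For admp the authors' deposited table calls shield and 7-somite and not tailbud, whereas the limma test called shield and tailbud and not 7-somite. The deposited ratios of admp run the other way round, epiboly-treated over sphere-treated, and are 1.81, 3.68 and 1.68 from shield to 7-somite in the authors' deposited table. At tailbud admp was thus left uncalled despite a ratio of 3.68. The authors' call therefore rests on more than a 50% change, by a rule that the sources used here do not give.

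Other transcripts moved at the same stages, read here from marker lists that were also chosen with earlier results of these data known. At shield, where 20.5% of all genes were called higher and 19.9% lower, the organizer, epidermal and neural plate lists of markers held both directions. In the organizer and axial mesoderm list, 12 genes besides chrd, 6 fell and 1 rose at shield (otx2b, which is also in the neural plate list). The summed UQN mean was 8818 in sphere-treated and 12865 in epiboly-treated embryos, of which tbxta gave 5735 and 8627. At tailbud 5 of the 12 fell and at 7-somite 4, beside 1.74% and 8.81% of all genes called lower. At those stages 0 rose. In the list of 13 epidermal genes 9 rose and 1 fell at shield, with sums of 259047 in sphere-treated and 191307 in epiboly-treated embryos. These sums were mostly krt4, krt5 and krt8, with 79076, 52150 and 70597 in sphere-treated and 58644, 35742 and 56445 in epiboly-treated embryos. At tailbud 5 of the 13 rose and at 7-somite 4, beside 0.249% and 5.91% of all genes called higher. At those stages 0 fell. Of 12 neural plate genes 6 rose and 2 fell at shield, with a median log2 ratio of 0.35. Their sums were 31205 in sphere-treated and 32666 in epiboly-treated embryos. At tailbud 0 of the 12 were called, and at 7-somite 1 rose and 1 fell. Of 10 paraxial mesoderm genes 4 fell and 0 rose at shield, with sums of 5297 in sphere-treated and 9650 in epiboly-treated embryos. Most of these sums came from tbx16, with 4884 in sphere-treated and 8572 in epiboly-treated embryos. At tailbud, where the fsta gap was widest and 1.74% of all genes were called lower, 7 of the 10 fell. Their median log2 ratio was -3.06, with sums of 1971 in sphere-treated and 9678 in epiboly-treated embryos, of which tbx16 gave 953 and 1929. At 7-somite 2 of the 10 fell, beside 8.81% of all genes called lower. The median was then -0.47, with sums of 11797 in sphere-treated and 13109 in epiboly-treated embryos. No gene of these lists was at 0 in any group. The part of these cell types in the results for the 6 genes was not tested.

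Transcripts of a maternal and germ cell list, some of which embryos clear as they develop, were mostly lower in sphere-treated embryos at shield. Of 11 maternal and germ cell genes 9 fell there, beside 19.9% of all genes called lower. The summed UQN mean of the 11 was 55051 in sphere-treated and 73100 in epiboly-treated embryos. Most of it came from pou5f3 (36652 in sphere-treated and 45253 in epiboly-treated embryos) and ccnb1 (11922 and 14835). At tailbud 0 of the 11 were called, with a median log2 ratio of 0.27. The sums were then 14527 in sphere-treated and 12252 in epiboly-treated embryos. At 7-somite 0 were called, with sums of 6171 in sphere-treated and 6867 in epiboly-treated embryos. For 7 of the 11 the onset ratio was called higher at tailbud than at shield, beside 20% of all genes called in either direction. For bmp4 and chrd the onset ratio at shield had the opposite sign to their own change from shield to tailbud, and for admp and szl it had the same sign. The part of developmental time in these results was not tested.

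Whether the onset effect itself changed between stages was tested from all 4 groups of each pair of stages. For fsta the difference of tailbud minus shield was -5.06 (log2, SE 0.33, limma adjusted p = 3.3e-05), rank 1 from the lowest difference of all genes, and higher at 7-somite than at tailbud by 3.71 (SE 0.48, limma adjusted p = 0.0047). Between shield and 7-somite the fsta difference was -1.35 (SE 0.39, limma adjusted p = 0.023). Shield means of fsta were near the bottom of the scale, 7 in sphere-treated and 8 in epiboly-treated embryos. Its differences from shield therefore mostly restate the ratios at the later stages. For nog1 the difference between shield and tailbud did not pass the test (difference -0.28, 95% interval -1.58 to 1.02). It was higher at 7-somite than at tailbud by 1.90 (SE 0.27, limma adjusted p = 0.0074) and than at shield by 1.62 (SE 0.55, limma adjusted p = 0.041). Without moderation the differences from shield to 7-somite lost their calls (adjusted p = 0.082 for nog1, range over the alternatives 0.025 to 0.082, and 0.051 for fsta, range 0.013 to 0.051).

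bmp4, szl, chrd and admp showed no stage difference of the onset effect that passed the test. The 95% interval of tailbud minus shield was -0.34 to 0.21 for bmp4, -1.05 to 0.11 for szl, 0.05 to 0.86 for chrd and -1.79 to -0.20 for admp. With a trended moderation admp passed (limma adjusted p = 0.048, range over the alternatives 0.048 to 0.16). The chrd difference of 7-somite minus shield had a 95% interval from 0.04 to 0.81 and passed with equal totals (limma adjusted p = 0.038) and with trended moderation (0.044), in a range over the alternatives of 0.038 to 0.11. Over all genes 20% were called for tailbud minus shield, 2.03% for 7-somite minus tailbud and 35.9% for 7-somite minus shield. The 6 genes gave 1, 2 and 2 calls for these.

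**Figure D4:**
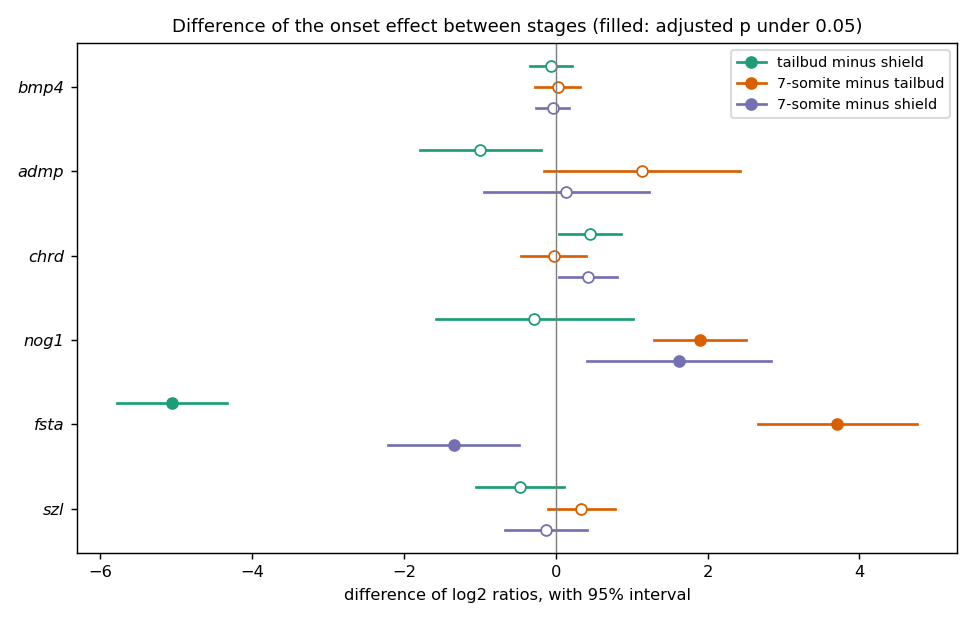
Difference between stages of the log2 onset ratio (x axis), for tailbud minus shield (green), 7-somite minus tailbud (orange) and 7-somite minus shield (purple), with 95% intervals; filled points have an adjusted p under 0.05. The intervals of fsta and of 2 nog1 differences lie clear of 0, and those of bmp4 all include 0. Without passing the test over all genes, the intervals of chrd and admp for tailbud minus shield also exclude 0, as does that of chrd for 7-somite minus shield.

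The rest of the pathway was read from a list of 84 other BMP genes, of which 58 were in the table. The list was chosen with earlier results of these data known, so its shares beside those of all genes are a description. At shield 25 (43.1%) rose and 8 (13.8%) fell, beside 20.5% of all genes higher and 19.9% lower, with a median log2 ratio of 0.21 against 0.01 for all genes. At tailbud 7 (12.1%) rose and 3 (5.17%) fell, beside 0.249% and 1.74% of all genes, with a median of 0.19 against -0.01. At 7-somite 15 (25.9%) rose and 3 (5.17%) fell, beside 5.91% and 8.81% of all genes, with a median of 0.23 against -0.02. The medians stood above that of all genes at each stage, while single-gene calls thinned at tailbud.

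Among the other ligands, bmp7a, whose protein pairs with that of bmp2b in the early embryo, was higher in sphere-treated embryos at all 3 stages. It had 4084 ± 80.5 in sphere-treated and 3534 ± 90.7 in epiboly-treated embryos at shield, and 3225 ± 96.4 against 1906 ± 111 at tailbud (log2 ratio 0.76). At 7-somite it had 1940 ± 107 in sphere-treated and 1163 ± 50.8 in epiboly-treated embryos (log2 ratio 0.74, limma adjusted p = 0.011). bmp2b rose at shield, with 1939 ± 107 in sphere-treated and 1350 ± 25.6 in epiboly-treated embryos, and had log2 ratios of 0.61 and 0.29 at the later stages that did not pass the test. Of the 9 receptor genes 1 rose and 1 fell at shield (11.1% each way), bmpr1ab (log2 ratio 0.22) and acvr2ba (-0.34). These shares lay below the 20.5% of all genes called higher and 19.9% called lower. At 7-somite acvr2aa rose (0.50), 11.1% of the list beside 5.91% of all genes.

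Of the 5 Smad genes, which carry the signal to the nucleus, 2 rose at shield, beside 20.5% of all genes called higher. smad9 had 540 ± 56 in sphere-treated and 237 ± 20.2 in epiboly-treated embryos, and smad1 had 756 ± 85.9 against 359 ± 18.2. smad5, the most abundant of the 5, was not called there. It had 5506 ± 349 in sphere-treated and 6302 ± 174 in epiboly-treated embryos. At 7-somite smad9 was again the higher in sphere-treated embryos, with 461 ± 9.21 against 229 ± 26.6 in epiboly-treated embryos (log2 ratio 0.99). smad4b was higher there too (log2 ratio 0.56). Intracellular and membrane feedback inhibitors rose in 4 of 7 cases at shield (57.1%, beside the same 20.5% of all genes). The largest log2 ratios were those of smad6b (1.09), bambib (0.84) and smad6a (0.65). The first 2 had low means, 91 and 47 in sphere-treated and 40 and 24 in epiboly-treated embryos. bambia, a decoy receptor gene and the most abundant of the 7, was not called at shield (7809 ± 196 in sphere-treated and 7946 ± 67.4 in epiboly-treated embryos). At tailbud bambia was higher in sphere-treated embryos (7076 ± 332 against 4577 ± 143 in epiboly-treated embryos). It was also higher at 7-somite (log2 ratio 0.46), as was bambib (0.36).

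Besides chrd, nog1, fsta and szl, 3 genes of the antagonist list were measured. Of these, sostdc1a and fstl1a were lower in sphere-treated embryos where they were called, and fstl1b was not called at any stage. sostdc1a was lower in sphere-treated embryos at all 3 stages, with log2 ratios of -1.52, -1.50 and -0.92. It stood at 71 ± 26 in sphere-treated and 213 ± 11.6 in epiboly-treated embryos at shield. The later values were low, with 7 ± 0.577 in sphere-treated and 29 ± 2 in epiboly-treated embryos at tailbud, and 14 ± 0.882 against 31 ± 5.24 at 7-somite. fstl1a, a gene of the follistatin-like family, fell at tailbud (9 ± 4.7 in sphere-treated and 84 ± 4.06 in epiboly-treated embryos) and at 7-somite (167 ± 43.1 against 486 ± 33.8).

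All 8 genes of the list of modulators and proteases were called at shield, 5 higher and 3 lower, beside 20.5% of all genes called higher and 19.9% lower. bmper, a BMP-binding modulator, had 1688 ± 188 in sphere-treated and 779 ± 54.5 in epiboly-treated embryos. tll1, a tolloid-family protease gene whose product cuts chordin, had 835 ± 33.6 in sphere-treated and 439 ± 59.7 in epiboly-treated embryos. The Wnt-binding gene sfrp1a rose as well (log2 ratio 0.81). Also called higher at shield was bmp1a, with 1657 ± 86.4 in sphere-treated and 1229 ± 39.7 in epiboly-treated embryos. So was twsg1b, with 4876 ± 23.1 in sphere-treated and 4182 ± 137 in epiboly-treated embryos. The less abundant twsg1a fell (log2 ratio -0.36), as did frzb (-1.11). The protease gene bmp1b, also less abundant than bmp1a, fell too (48 ± 7.88 in sphere-treated and 101 ± 9.53 in epiboly-treated embryos). At tailbud the protease gene bmp1a was higher in sphere-treated embryos (2225 ± 110 against 1192 ± 67.7 in epiboly-treated embryos, log2 ratio 0.90). frzb was lower there, with 22 ± 2.73 in sphere-treated and 207 ± 11.1 in epiboly-treated embryos (log2 ratio -2.97). bmper and bmp1a rose at 7-somite (log2 ratios 0.90 and 0.52).

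Of the 21 BMP response genes 11 (52.4%) rose and 3 (14.3%) fell at shield, beside 20.5% of all genes called higher and 19.9% lower. The share that fell was thus below that of all genes. Those that rose most were dlx3b (1214 ± 405 in sphere-treated and 93 ± 24 in epiboly-treated embryos), tp63 (706 ± 151 against 121 ± 19.7) and msx1a (343 ± 71.5 against 76 ± 5.78), genes of ventral and border ectoderm. The ventral homeobox genes vent and vox fell there, vent with 1207 ± 196 in sphere-treated and 2570 ± 114 in epiboly-treated embryos (log2 ratio -1.09) and vox with 3601 ± 319 against 5453 ± 60.7 (log2 ratio -0.60). id1, which encodes a dominant inhibitor of helix-loop-helix factors, fell by 0.32 on the log2 scale. At tailbud 4 of the 21 (19%) rose, beside 0.249% of all genes called higher, led by gata2a, dlx3b and tp63 (log2 ratios 0.82, 0.75 and 0.74). At 7-somite 7 (33.3%) rose, led by msx2b, dlx5a and ved (0.71, 0.66 and 0.62), and id3 fell (-0.43). Of all genes 5.91% were called higher and 8.81% lower at that stage. The epidermal list shares 7 genes with this list.

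**Figure D5:**
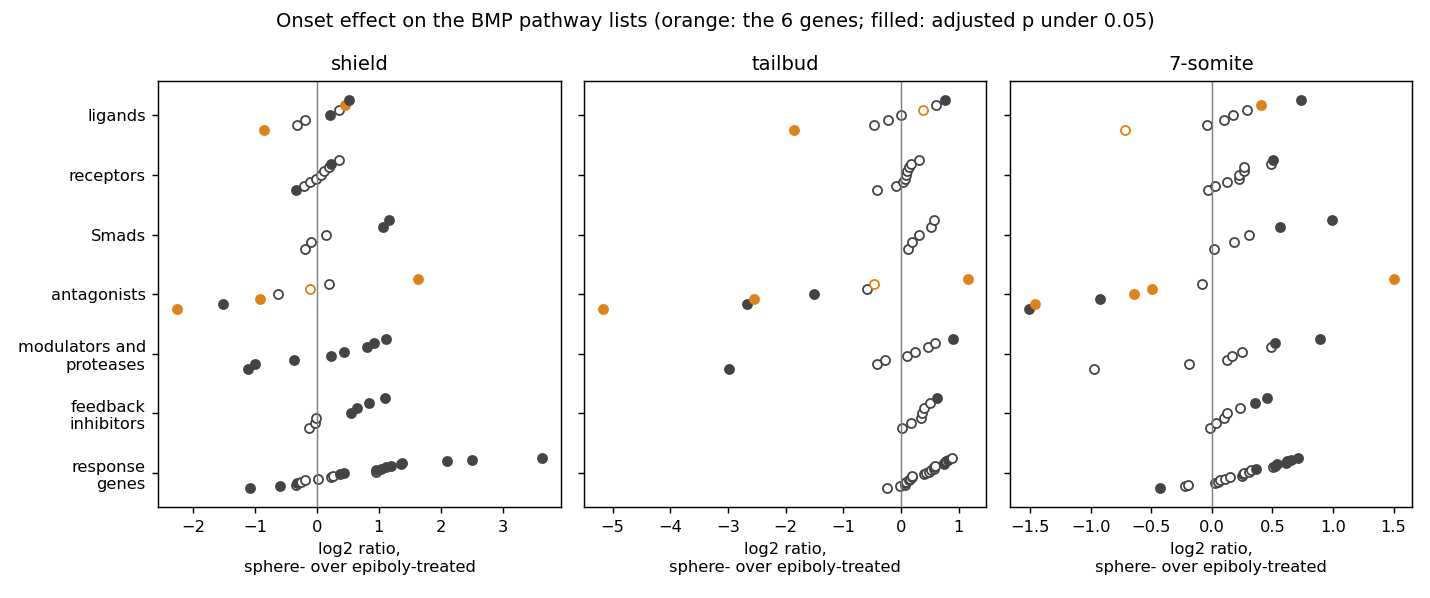
Log2 ratio of sphere-treated over epiboly-treated embryos (x axis, a separate scale for each stage) for the genes of each BMP list (rows), at shield, tailbud and 7-somite; each point is a gene, orange points are the 6 genes, with admp among the ligands and szl among the antagonists, and filled points have an adjusted p under 0.05. Antagonists reach furthest to the left at tailbud, where fsta stands at -5.17.

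The genes most like each of the 6 were taken by Pearson's r of log2(mean + 5) over the 6 groups, among 4616 named genes that varied over the groups. The groups share onsets and stages, so r is a description. For szl the nearest was smad9 (r = 0.96), followed by tll1 (0.94) and cyp7b1 (0.93), and the first 2 are BMP pathway genes of the lists above. fsta was followed most closely by dhrs3a (r = 0.996), which acts in retinoid metabolism and was listed at 0 in both shield groups, nkx6.1 (0.99) and smyd1b (0.99). smyd1b, a muscle methyltransferase gene, had 11 at tailbud and 104 at 7-somite in sphere-treated embryos, against 132 and 198 in epiboly-treated embryos. For nog1 they were ndnf (0.97), pip5k1ca (0.95) and pcdh8 (0.91). For admp they were aoc2 (0.99), insb (0.99) and aadat (0.98). For bmp4 they included cramp1 (0.99) and fgd4a (0.98), and for chrd they were jph3a (0.93), sema5bb (0.91) and sh3kbp1 (0.89).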

How the data were processed

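RNA of whole embryos was sequenced from TruSeq RNA v2 libraries, per the labels' protocols. The authors deposited, per the file headers, UQN means, which are scores rounded to whole numbers and not counts, with standard errors, also scores on that scale, a ratio of the onsets and a yes or no call. The deposited ratio equals (epiboly-treated mean + 1) over (sphere-treated mean + 1) in 13321 of 13321 records at each stage. The submitters' processing notes name DESeq 1.6.1 but not what it did. Which aligner, counter and genome build were used is not given in the sources used here. Sequencing depth is unknown, so no counting intervals are given.

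Symbols came from the RefSeq gene table of assembly GRCz12tu, used for names only. A gene identifier gave a symbol to 12182 of 13321 records, an accession to 42, and 1097 stayed without one. The highest record of each symbol was kept, which set 47 aside. All standard errors between 0 and 5 (100%) equal one that 3 whole numbers can have, within rounding, although such values cover 9.08% of that range. The variance of log2(mean + 5) was taken from the deposited standard errors by the delta method and moderated with limma 3.58.1 (squeezeVar) in R 4.3.3. Tests are two-sided with Benjamini-Hochberg adjustment over 13274 genes. Their recovery of planted onset changes was checked on data simulated with the same spread setting for all genes. That check does not give their error rate on these data. A minimum mean of 10 removed no gene. Alternatives changed the pseudocount, scaling, moderation, pooling of the spread, number of values per mean, low-value filter and choice of record. The members and lists were chosen with earlier results of these data known. Pathway genes are named by list and stage, up to 3 called each way with the largest ratio, and a few more for their level or call. Motifs and sequences were not analysed here. One gene among those most like bmp4 is not reported here.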

Additional observations from a re-analysis of the deposited data

Results flagged for a closer look

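For each gene below the effect of onset differed between 2 harvest stages in the limma-moderated test of that difference (adjusted p under 0.05 over all genes). Values are differences of log2 ratios of sphere-treated over epiboly-treated embryos, and their causes were not tested.

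For fsta the difference was -5.06 for tailbud minus shield, 3.71 for 7-somite minus tailbud and -1.35 for 7-somite minus shield. For nog1 it was 1.90 for 7-somite minus tailbud and 1.62 for 7-somite minus shield.

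Among the other pathway genes named in the report, tailbud minus shield was below 0 for dlx3b (-2.89), fstl1a (-2.86), msx1a (-1.94), frzb (-1.86), tp63 (-1.75), bmper (-0.87), smad1 (-0.75) and smad6b (-0.70). It was above 0 for vent (1.23), vox (0.67), bambia (0.65), bmp7a (0.55), bmp1a (0.47) and acvr2ba (0.44). The difference of 7-somite minus tailbud was called for frzb (1.998). The difference of 7-somite minus shield was below 0 for dlx3b (-3.27), msx1a (-2.08), tp63 (-1.89), fstl1a (-1.71), sfrp1a (-1.001), gata2a (-0.93), smad6b (-0.86), smad1 (-0.76), id3 (-0.68) and smad6a (-0.55). It was above 0 for vent (1.61), dlx5a (0.85), acvr2ba (0.82), vox (0.67), smad4b (0.66), twsg1a (0.53), bmp7a (0.53), bambia (0.48) and acvr2aa (0.44). Shield means were near the bottom of the scale for fsta, fstl1a (3 in sphere-treated and 2 in epiboly-treated embryos) and dlx5a (2 and 3). For these genes a difference from shield mostly restates the ratio at the later stage.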

How the results depend on the processing

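The single values that went into each mean are not analysed here, so none could be left out. No paired analysis was possible because the labels give 1 sample per group and no replicate numbers. The motif search needs sequences that were not used here. Over the 11 alternatives, 753 of 789 values for the 6 genes kept their direction and their side of the threshold, 15 lost the call, 14 gained it, 5 changed sign and 2 left a value of exactly 0, none of these 7 from a called value. Under the minimum mean of 50, fsta gave no onset value at shield, and fsta and nog1 gave none for shield to tailbud in sphere-treated embryos. These 7 came from scaling: szl from shield to 7-somite in sphere-treated embryos became 0.22 with median-of-ratios scaling and 0.42 with equal totals (limma adjusted p = 0.012), nog1 from shield to tailbud in epiboly-treated embryos, 0 as deposited, 0.19 and 0.28, and the bmp4 difference of 7-somite minus shield 0.003 and 0.058. The chrd difference of 7-somite minus tailbud became 0.045 with equal totals. Onset calls were gained by bmp4 and chrd at tailbud with the pooled spread (limma adjusted p = 0.011 and 0.048) and by admp at 7-somite with 2 values behind each mean (2.65e-04).

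Without moderation, which leaves fewer degrees of freedom, 14 other pathway genes rose and 1 fell at shield, 0 rose and 1 fell at tailbud, and 5 rose and 1 fell at 7-somite. Of the 6 genes, 0 then rose and 1 fell at tailbud, and 1 rose and 0 fell at 7-somite. With the spread pooled over the 6 groups, 2 of the 6 and 14 other pathway genes rose at tailbud. With trended moderation 12 other pathway genes rose at tailbud and 23 at 7-somite, and with 2 values behind each mean 13 rose at tailbud and 1 of the 6 genes at 7-somite. The causes were not tested. Over all genes the calls ran from 861 to 2894 higher and 573 to 2983 lower at shield, 3 to 267 and 39 to 585 at tailbud, and 245 to 1256 and 452 to 1796 at 7-somite.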
